A study of Mus musculus with 36 samples.

Results

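Transcriptomes were compared between 2 sets of bisected mouse embryos, embryos 9 to 14 and embryos 15 to 18, whose sister blastomeres had been raised in the same pair of culture media. The members were taken by the embryo number and medium given in the sample labels. Of 36 arrays from 18 embryos, 20 arrays from 10 embryos entered, 12 from embryos 9 to 14 (6 embryos) and 8 from embryos 15 to 18 (4 embryos). Embryos were obtained from B6C3F1 x CD1 matings after ovarian stimulation, kept in KSOM(aa) medium to the 2-cell stage and then separated into single blastomeres. Each blastomere was grown alone for 72 hours (96 hours of culture in all, Theiler stage 5, 4 days post coitum) and gave a blastocyst of about 40 to 50 cells, which was lysed whole and hybridized to its own Mouse Transcriptome Array. In both embryo sets, the blastomere labelled a of each number was grown in GM501 cult and its sister b in SAGE 1-Step, which are commercial media for human-assisted reproduction. Genotype, age, tissue and media were therefore shared by the sets, and the labels set them apart by embryo number alone. The other 16 arrays, of embryos 1 to 8 in KSOM(aa), were left out of the tests.

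A blastocyst has an outer epithelium, the trophectoderm, whose cells are sealed by tight junctions and pump fluid into the cavity, and an inner cell mass that divides into epiblast (EPI) and primitive endoderm. Most of the RNA in such cells is ribosomal. Ribosomes are assembled in the nucleolus from ribosomal RNA and from many small proteins, each with a short and abundant messenger RNA, and glycolysis and the respiratory chain supply the energy. On the array, a gene or transcript is represented by a transcript cluster, whose signal is summarised over probes placed along its exons.

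The question was which transcripts separate the sets whatever the medium. For each of 40160 transcript clusters with a gene symbol, the deposited log2 signals of the sisters were averaged, and the 6 embryo means of embryos 9 to 14 were compared with the 4 of embryos 15 to 18 (limma, 2-sided, Benjamini-Hochberg adjusted p under 0.05). Differences are given as embryos 9 to 14 minus embryos 15 to 18, so that a log2 difference of 1 is a 2-fold excess in embryos 9 to 14. The sets had been seen to differ in 18S ribosomal RNA (Rn18s), in Gapdh and in their leading principal component when the comparison was proposed. Rn18s and Gapdh are therefore described without a test, and the adjusted p of the other genes relates each difference to the spread between embryos without being independent evidence that the sets differ.

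The arrays of the sets had consecutive scan numbers within 1 scan project, 129 to 140 for embryos 9 to 14 and 141 to 148 for embryos 15 to 18, so that embryo set and scan order cannot be told apart. Whether the sets were collected, lysed or amplified on different days is not given in the sources used here. The background of an array was read from 1595 transcript clusters for odorant and pheromone receptors, at their 90th percentile, and lay between 4.95 and 5.49 on the log2 scale in embryos 9 to 14 and between 4.55 and 5.30 in embryos 15 to 18. It did not exceed 4.75 in embryos 15 to 18 without half-embryo 16b, which stood apart from the other 7 arrays of its set. The interquartile range of the signals was 2.66 to 3.35 in embryos 9 to 14 and 2.86 to 3.67 in embryos 15 to 18 (3.34 to 3.67 without 16b). The first principal component held 52.6% of the variance of the embryo means and ran from 17.4 to 48.7 in embryos 9 to 14 and from -63.5 to -38.0 in embryos 15 to 18. Xist was high in 3 of 6 embryos of the first set and in 2 of 4 of the second. Of the blastocyst markers, those of trophectoderm exceeded the background in 21 of 23 cases, those of EPI in 16 of 17 and those of primitive endoderm in 17 of 19.

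The separation reached a large part of the transcriptome. Of the 40160 transcript clusters, 22036 (54.9%) passed the test, 18323 higher (45.6%) and 3713 lower (9.25%) in embryos 9 to 14. The median difference over all of them was 0.30, so a value under 0.30 lies below the common shift and a positive value is not by itself a gene-specific excess. After quantile normalization, which gives all 20 arrays the same distribution, 9011 (22.4%) passed, 4194 higher (10.4%) and 4817 lower (12.0%), and the share of higher among the called transcript clusters was 46.5% against 83.2% as deposited. Subtracting the median of each array gave 8571 calls (21.3%), 6.16% of all higher and 15.2% lower. Higher made up 28.9% of these calls. Scaling to Actb, Gapdh and Hprt gave 35784 (89.1%), 87.4% higher and 1.72% lower, so that higher made up 98.1%. Actb and Gapdh, the latter known beforehand to differ, were themselves lower in embryos 9 to 14 (-1.22 and -0.89). Scaling to them therefore raised all differences by the same amount, to a median of 1.17. Its excess of higher calls is no separate result. Of the 21868 transcript clusters above background, 11030 (50.4%) passed as deposited. Under the deposited scale and quantile normalization together, 7628 were called in the same direction, 4182 higher and 3446 lower, and 0 in opposite directions. The values of all 12 arrays of embryos 9 to 14 lay above all 8 of embryos 15 to 18 for 1777 transcript clusters (4.42%) and below them for 634 (1.58%). Leaving out embryo 17 or embryo 18 brought the number of calls on the deposited scale to 13651 and 13535.

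The 18S, 5.8S and 28S ribosomal RNAs had lower signals in embryos 9 to 14. The Rn18s transcript cluster mapped to chromosome 6 had signals of 15.58, 15.94 and 16.33 (lowest, median and highest array) in embryos 9 to 14 and of 17.17, 17.46 and 17.79 in embryos 15 to 18, a difference of -1.53 with no overlap. An unmapped second transcript cluster for Rn18s differed by -1.48, again without overlap. Rs5-8s1, the 5.8S RNA of the large ribosomal subunit, had 13.15, 14.92 and 15.82 in embryos 9 to 14 and 17.93, 18.28 and 18.46 in embryos 15 to 18. All 8 arrays of embryos 15 to 18 therefore exceeded the highest of embryos 9 to 14 by more than 2 log2 units, and the difference was -3.53 (standard error 0.32, adjusted p = 2.95e-05, limma), an 11.5-fold lower signal. Rn28s1, the 28S RNA, differed by -2.59 (adjusted p = 7.68e-05, limma), and its arrays just failed to overlap, with a highest value of 15.40 in embryos 9 to 14 and a lowest of 15.42 in embryos 15 to 18. Of the 5 transcript clusters of the ribosomal RNA list other than Rn18s, Rs5-8s1 and Rn28s1 were lower, 1 for 5S RNA (n-R5s1, outside the rule and named after its values were seen) was higher by 0.66 as deposited (adjusted p = 0.0418, limma) but not called after quantile normalization, and the other 2 did not pass. These names are those of the array annotation, and near-identical copies of ribosomal RNA genes cannot be told apart by its probes.

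The signal recognition particle RNA, which helps deliver nascent secretory proteins to the endoplasmic reticulum, followed the same direction. Its transcript cluster on chromosome 12 (Metazoa_SRP, 69361182 to 69361481 of mm10) had 13.78, 14.81 and 15.72 in embryos 9 to 14 and 17.94, 18.26 and 18.56 in embryos 15 to 18, a difference of -3.43 (standard error 0.23, adjusted p = 1.18e-05, limma). Rn7s1 and Rn7s2, further names of this RNA that carry identical values, differed by -3.38. No array of embryos 9 to 14 came within 2 log2 units of any array of embryos 15 to 18. Rn7sk, the 7SK RNA that restrains transcription elongation, was lower by less, with differences of -0.72 and -0.75 in its 2 transcript clusters, and these had the opposite sign (0.14 and 0.11) when the arrays were scaled to Actb, Gapdh and Hprt. AY036118, a transcript on chromosome 17 (39848103 to 39848827), had 7.76, 8.14 and 8.90 in embryos 9 to 14 and 11.36, 12.16 and 12.80 in embryos 15 to 18. Its difference of -3.99 (standard error 0.23, adjusted p = 1.18e-05, limma) was the second largest fall among the genes chosen by size, after that of Snord45b.

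**Figure D1:**
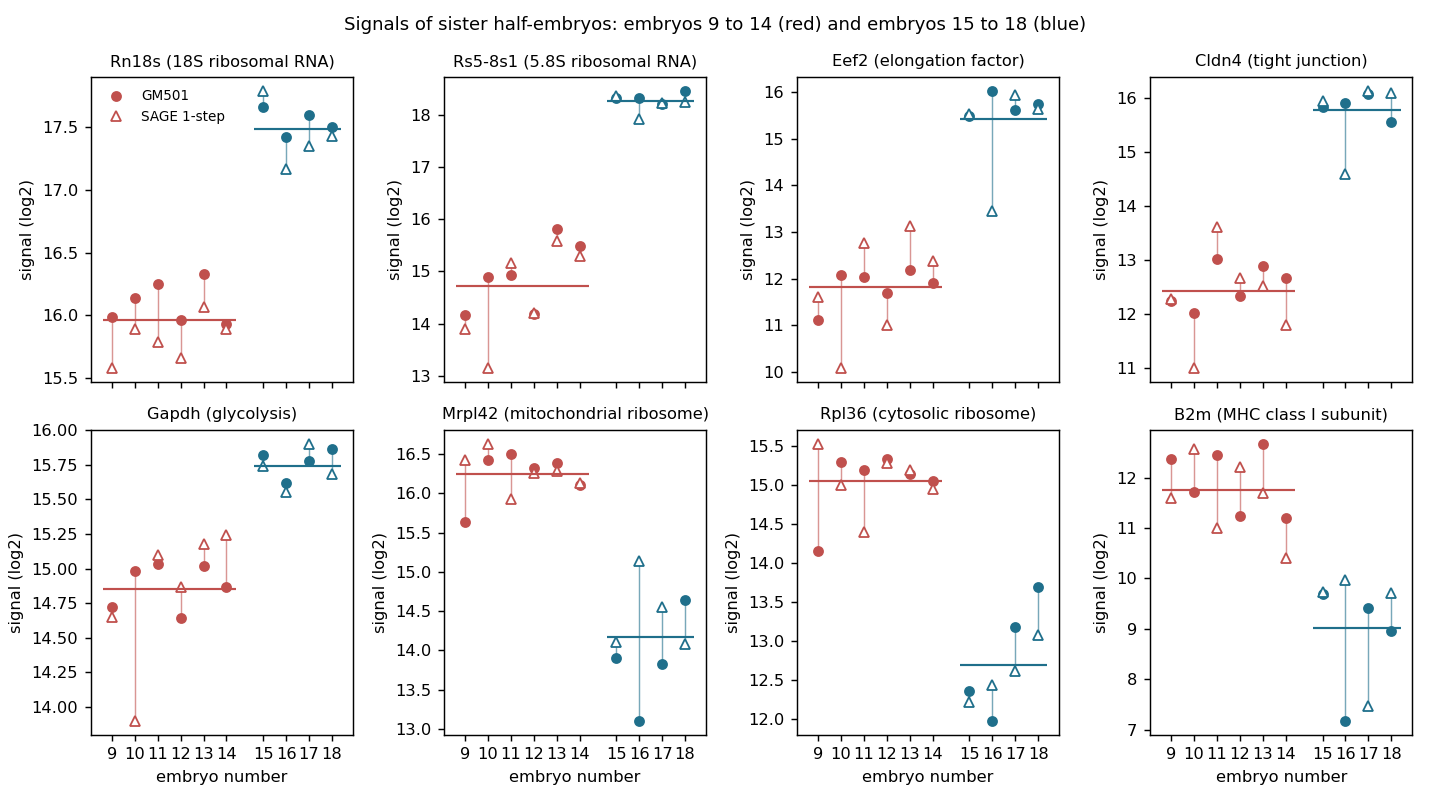
Log2 signal of 8 genes (vertical axes) in each half-embryo by embryo number (horizontal axes), with embryos 9 to 14 in red and embryos 15 to 18 in blue, filled circles for GM501, open triangles for SAGE 1-step, thin lines joining sisters and horizontal lines for set means. Rn18s, Rs5-8s1, Eef2, Cldn4 and Gapdh lay lower in every array of embryos 9 to 14, and Mrpl42, Rpl36 and B2m higher.

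Small RNAs did not share a direction. Over all transcript clusters, 45.6% were higher and 9.25% lower as deposited, and 10.4% and 12.0% after quantile normalization. Of 35 transcript clusters for small nuclear RNAs, 2 were higher (5.71%) and 8 lower (22.9%) as deposited, with a median of 0.23. Among 129 transcript clusters for small nucleolar RNAs, which guide chemical modification of ribosomal RNA, 38 were higher (29.5%) and 23 lower (17.8%) as deposited. After quantile normalization 16 were higher (12.4%) and 25 lower (19.4%). Snord45b (chromosome 3, 153910563 to 153910633) had 3.28, 3.87 and 9.74 in embryos 9 to 14 and 7.43, 8.96 and 11.29 in embryos 15 to 18. Half-embryo 14a, at 9.74, was the 1 array of the first set within the range of the second, and the difference was -4.68 (standard error 0.72, adjusted p = 0.000698, limma). Outside embryo 14, the embryo means of the first set were 3.44 to 4.65, below its array background of 4.95 to 5.49. Snord45b thus counted as above background through embryos 15 to 18, and the size of its fall is not a measured fold. Snord104 (chromosome 11, 106500991 to 106501063) had 10.98, 13.12 and 13.40 in embryos 9 to 14 and 9.50, 10.06 and 10.76 in embryos 15 to 18. It did not overlap between sets and was higher by 2.84 (adjusted p = 1.77e-05, limma), and Snord87 on chromosome 1 was higher by 2.51 (adjusted p = 0.000989, limma).

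Among 1256 transcript clusters for microRNAs, 408 were higher (32.5%) and 138 lower (11.0%) as deposited. After quantile normalization 80 were higher (6.37%) and 168 lower (13.4%). Over all transcript clusters, the shares were 45.6% and 9.25% as deposited and 10.4% and 12.0% after quantile normalization. The median of the microRNA list was 0.28, near the common shift of 0.30. These transcript clusters are annotated to the locus of the precursor and do not measure the mature microRNA. Mir5105 (chromosome 5) had 8.67, 9.64 and 10.99 in embryos 9 to 14 and 11.45, 14.57 and 14.95 in embryos 15 to 18, a difference of -4.61 (adjusted p = 2.49e-05, limma) without overlap. Mir3470b (chromosome 16, 44013852 to 44013977) had 13.80, 14.11 and 14.27 in embryos 9 to 14 and 14.71, 15.06 and 15.48 in embryos 15 to 18, with no overlap and a difference of -1.0 (adjusted p = 5.42e-05, limma). A second transcript cluster of this name on chromosome 7 differed by -1.20. Whether the probes tell these copies, or other transcripts that hold this sequence, apart was not tested, so the fall cannot be assigned to 1 locus. The mature sequence is shown for this locus because its arrays did not overlap and its position matched 1 RefSeq entry, at chr16:44013885-44013905 on the plus strand of GRCm38.p6. It is written 5′ to 3′ with the seed (bases 2 to 8) in capitals:
mmu-miR-3470b: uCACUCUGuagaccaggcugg

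The parts of the translation machinery moved in different directions. Messenger RNAs of ribosomal proteins were more often higher than lower in embryos 9 to 14, and those of initiation and ribosome assembly factors were, over both media together, more often lower than higher. Of 95 transcript clusters for cytosolic ribosomal proteins, 60 were higher and 4 lower as deposited, and 46 were higher and 4 lower after quantile normalization, against 45.6% and 9.25% of all transcript clusters as deposited and 10.4% and 12.0% after quantile normalization. The median difference of the list was 0.39, or 0.09 above the median of all, and 0.34 after quantile normalization. With each array centred, 11 were higher and 5 lower, with a median of 0.06. Rpl36 (chromosome 17, 56613395 to 56614246), a protein of the large subunit, had 14.16, 15.16 and 15.53 in embryos 9 to 14 and 11.97, 12.52 and 13.69 in embryos 15 to 18. Every array of embryos 9 to 14 was above every array of embryos 15 to 18, and the difference was 2.36 (standard error 0.22, adjusted p = 3.32e-05, limma), a 5.12-fold higher signal. The pseudogenes Rpl36-ps3 and Rpl36-ps10, whose sequence resembles that of Rpl36, were higher by 2.63 and 2.38, and probes may not tell these copies apart. Rps26, Rpl32 and Rpl22l1 were higher by 0.85, 0.92 and 0.92, each without overlap between arrays.

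Eef2, the factor that moves the ribosome along the messenger RNA (chromosome 10, 81176631 to 81182509), had 10.09, 11.97 and 13.12 in embryos 9 to 14 and 13.46, 15.62 and 16.02 in embryos 15 to 18. The sets did not overlap, and the lowest value of embryos 15 to 18 was that of half-embryo 16b. The difference was -3.60 (standard error 0.33, adjusted p = 3.09e-05, limma), a 12.1-fold lower signal. Of 36 transcript clusters for initiation factors, 17 were lower (47.2%) and 5 higher (13.9%) as deposited and after quantile normalization alike, with a median of -0.34. Among all transcript clusters, 9.25% were lower and 45.6% higher as deposited, and 12.0% and 10.4% after quantile normalization. In GM501 alone 18 were lower and 2 higher (median -0.61), and in SAGE 1-step alone 5 were lower and 5 higher (median 0.00). Eif4g1, the scaffold of the cap-binding complex, was lower by 2.04 on the log2 scale without overlap, and its partners Eif4h and Eif4a1 differed by -2.48 and -1.11. Eif5a, which relieves stalled ribosomes, had a difference of -2.12 and its pseudogene Eif5al3-ps one of -3.65. Eef1a1, which brings aminoacylated transfer RNA to the ribosome, differed by -0.40 (adjusted p = 0.000342, limma), against 0.46 when the arrays were scaled to Actb, Gapdh and Hprt. In the list for the nucleolus and ribosome biogenesis, 13 of 30 were lower (43.3%) and 3 higher (10.0%) as deposited, with a median of -0.45 (18 and 1 in GM501, 4 and 2 in SAGE 1-step). Polr1a, the largest subunit of RNA polymerase I, differed by -1.39 and Bop1, a large-subunit assembly factor, by -2.10, whereas Nop10, a small protein of the pseudouridylation complex, was higher by 1.54 with no overlap between arrays.

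Nuclear genes for mitochondrial proteins were higher in embryos 9 to 14 more often than transcript clusters at large. Over all transcript clusters, 45.6% were higher and 9.25% lower as deposited, and 10.4% and 12.0% after quantile normalization. The mitochondrial ribosomal protein list had 61.8% and 52.6% higher on these scales, and the respiratory chain list 65.9% and 56.8%. Of 76 transcript clusters for mitochondrial ribosomal proteins, 47 were higher and 3 lower as deposited and 40 and 3 after quantile normalization, with a median of 0.61 as deposited and 0.57 after quantile normalization, and 19 and 5 with each array centred. Mrpl42 (chromosome 10, 95480805 to 95501938), a protein of the mitochondrial ribosome, had 15.64, 16.30 and 16.63 in embryos 9 to 14 and 13.10, 14.09 and 15.14 in embryos 15 to 18. The sets did not overlap in either medium, and the difference was 2.09 (standard error 0.11, adjusted p = 1.18e-05, limma). Mrpl55 was higher by 1.52, also without overlap. Of 88 transcript clusters for the nuclear subunits of the respiratory chain and ATP synthase, 58 were higher and 5 lower as deposited and 50 and 6 after quantile normalization, with medians of 0.53 and 0.45, and 27 and 6 with each array centred. Ndufa4, a subunit of cytochrome c oxidase, had 15.19, 15.73 and 15.91 in embryos 9 to 14 and 13.87, 14.35 and 14.75 in embryos 15 to 18, a difference of 1.38 (adjusted p = 1.55e-05, limma). Atp5k, of ATP synthase, and Ndufb3, of complex I, were higher by 1.42 and 1.35. Cox7a1, the form of a cytochrome c oxidase subunit known from heart and skeletal muscle, was higher by 2.79 (standard error 0.38, adjusted p = 0.000384, limma), its lowest array in embryos 9 to 14 at 10.99 and its highest in embryos 15 to 18 at 10.97. The 17 transcripts encoded by the mitochondrial genome were split, with 5 higher and 7 lower. Among its transfer RNAs, mt-Tr and mt-Th differed by -1.97 and -2.67, and mt-Tk by 1.83.

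Genes of glycolysis were lower where they passed the test. Of 19 transcript clusters, Gapdh left out, 0 were higher and 10 lower as deposited and 0 and 12 after quantile normalization, and the median difference was -0.76. For comparison, 45.6% of all transcript clusters were higher and 9.25% lower as deposited, and 10.4% and 12.0% after quantile normalization. Gapdh (chromosome 6, 125161852 to 125166467) had 13.90, 14.92 and 15.24 in embryos 9 to 14 and 15.55, 15.76 and 15.90 in embryos 15 to 18, a difference of -0.89 with no overlap. Gpi1, which converts glucose 6-phosphate, had 8.86, 9.67 and 10.46 in embryos 9 to 14 and 10.87, 11.70 and 12.13 in embryos 15 to 18. It differed by -1.92 (standard error 0.25, adjusted p = 0.000293, limma), and Tpi1, the triose phosphate isomerase, by -1.78, each without overlap. Hk2, a hexokinase that commits glucose to the pathway, differed by -1.63 with overlap in the arrays only. When the arrays were scaled to Actb, Gapdh and Hprt, the median of the list was 0.10, against 1.17 over all transcript clusters on that scale.

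Of the genes often used to scale expression, Actb was lower in embryos 9 to 14 and Hprt did not pass the test. Actb, a cytoskeletal actin, had 15.49, 16.08 and 16.78 in embryos 9 to 14 and 17.08, 17.27 and 17.47 in embryos 15 to 18. All arrays of the first set were below those of the second, and the difference was -1.22 (standard error 0.14, adjusted p = 0.00011, limma). Hprt, a purine salvage enzyme, had 14.12, 15.08 and 15.81 in embryos 9 to 14 and 13.51, 14.94 and 15.23 in embryos 15 to 18, with a difference of 0.30 that did not pass (adjusted p = 0.202, limma). Of 15 genes in common use for this purpose, 2 were higher (13.3%) and 6 lower (40.0%), against 45.6% and 9.25% of all transcript clusters. B2m, the invariant chain of MHC class I molecules, was among the higher and Polr2a, the largest subunit of RNA polymerase II, among the lower, at differences of 2.74 and -1.53, each without overlap.

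Most genes of epithelial junctions were lower in embryos 9 to 14. Of 17 transcript clusters for epithelial junctions, 13 were lower (76.5%) and 0 higher as deposited, and 14 were lower (82.4%) and 0 higher after quantile normalization. Among all transcript clusters, 9.25% were lower and 45.6% higher as deposited, and 12.0% and 10.4% after quantile normalization. The median was -1.07, the most negative of the lists of protein-coding genes with 5 or more members. Cldn4, a claudin of the tight junction (chromosome 5, 134945123 to 134946934), had 11.00, 12.42 and 13.61 in embryos 9 to 14 and 14.59, 15.93 and 16.13 in embryos 15 to 18. The sets did not overlap, and the difference was -3.35 (standard error 0.29, adjusted p = 2.56e-05, limma), a 10.2-fold lower signal. Jup, a plakoglobin of adherens junctions and desmosomes, differed by -1.77, with overlap in the arrays and none in the embryo means. Of 23 trophectoderm markers, 12 were lower and 5 higher as deposited, and 11 were lower and 1 higher after quantile normalization, with 9 and 5 in GM501 alone and 4 and 0 in SAGE 1-step alone. The water and glycerol channel Aqp3, the receptor Fgfr2 and the keratin Krt8 differed by -2.54, -1.91 and -1.48. Like Cldn4, they were named for having the smallest adjusted p of the list, and the markers that were higher are not among them. Cdx2, the transcription factor that specifies the lineage, had 11.40, 11.87 and 12.40 in embryos 9 to 14 and 11.87, 12.18 and 12.71 in embryos 15 to 18, and its difference of -0.29 did not pass (adjusted p = 0.142, limma). Since each array holds a whole blastocyst, fewer cells of a type and less RNA per cell cannot be told apart.

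The EPI regulators had calls in both directions. Of the 12 the study names, 3 were lower and 2 higher as deposited, against 54.9% of all transcript clusters called (9.25% lower, 45.6% higher). After quantile normalization 4 were lower and 0 higher, against 12.0% and 10.4% of all. Sall4, a transcription factor of pluripotent cells (chromosome 2, 168748332 to 168767943), had 7.97, 8.52 and 9.05 in embryos 9 to 14 and 8.45, 10.56 and 11.62 in embryos 15 to 18. Half-embryo 16b alone, at 8.45, lay within the range of embryos 9 to 14, and the difference was -1.96 (standard error 0.27, adjusted p = 0.000376, limma). Pou5f1, the gene of OCT4, had 7.15, 7.80 and 8.58 in embryos 9 to 14 and 7.81, 9.25 and 10.15 in embryos 15 to 18, a difference of -1.42 (adjusted p = 0.00089, limma) with overlap in the arrays and none in the embryo means. Tfcp2l1, of naive pluripotent cells, differed by -1.84 and Zfp42, a marker of the same state, by -1.28. Nanog, the marker by which the study counted EPI cells, had 9.85, 12.46 and 13.59 in embryos 9 to 14 and 10.61, 13.32 and 14.44 in embryos 15 to 18. The sets overlapped and the difference of -0.95 (standard error 0.45) did not pass (adjusted p = 0.0904, limma). Sox2, Tdgf1, Klf4 and Cops3 did not pass either, with differences of -0.22, -0.75, 0.13 and 0.32. Esrrb and Gbx2 were not above background, and Esrrb was the fourth gene that was lower after quantile normalization (-0.48). Klf2 and Foxd3 passed as deposited at 0.62 and 0.40 but not after quantile normalization, where their differences were 0.49 and 0.11.

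Of 19 primitive endoderm markers, 7 were lower (36.8%) and 2 higher as deposited, and 8 were lower (42.1%) and 0 higher after quantile normalization. In GM501 alone 8 were lower and 1 higher (median -0.30), and in SAGE 1-step alone 3 were lower and 0 higher (median -0.13). Among all transcript clusters, 9.25% were lower and 45.6% higher as deposited, and 12.0% and 10.4% after quantile normalization. Lamc1, the laminin gamma chain of the basement membrane these cells lay down, had 6.95, 8.26 and 9.06 in embryos 9 to 14 and 8.01, 11.38 and 12.09 in embryos 15 to 18. Both arrays of embryo 16, at 9.93 and 8.01, were the lowest of their set, and the difference was -2.74 (standard error 0.46, adjusted p = 0.00114, limma), or -3.38 without embryo 16. Lrp2, the endocytic receptor megalin, differed by -2.51. Sox17, the marker of the lineage in the study's cell counts, was not above background, and its difference was 0.25 as deposited and -0.09 after quantile normalization.

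Genes of the amino acid deprivation response, endoplasmic reticulum chaperones and cholesterol synthesis were more often lower than higher in embryos 9 to 14. In the list of the response to amino acid deprivation, 15 of 30 were lower and 1 higher as deposited and 16 and 0 after quantile normalization, with a median of -0.79. In GM501 alone 18 were lower and 0 higher (median -1.13), and in SAGE 1-step alone 5 were lower and 0 higher (median -0.33). Among all transcript clusters, 9.25% were lower and 45.6% higher as deposited, and 12.0% and 10.4% after quantile normalization. Slc7a5, the large neutral amino acid transporter (chromosome 8, 121881146 to 121907694), had 7.28, 8.88 and 10.43 in embryos 9 to 14 and 10.54, 11.88 and 12.28 in embryos 15 to 18. The arrays did not overlap and the difference was -2.87 (standard error 0.36, adjusted p = 0.000221, limma). Its heavy chain Slc3a2 differed by -1.69, and Sesn2, a sensor of leucine, by -1.96. Of 16 chaperones of the endoplasmic reticulum, 7 were lower and 1 higher (8 and 0 in GM501, 2 and 1 in SAGE 1-step). Hspa5 (BiP) and Canx (calnexin) were among the lower, at -1.11 and -0.86. Of 22 genes of cholesterol synthesis and uptake, 10 were lower and 1 higher (7 and 1 in GM501, 3 and 1 in SAGE 1-step). Srebf2, the transcription factor that drives the pathway, had 7.06, 7.76 and 8.30 in embryos 9 to 14 and 9.35, 10.50 and 10.99 in embryos 15 to 18, a difference of -2.70 (adjusted p = 2.5e-05, limma) without overlap. Sc5d, a desaturase of the pathway, was the 1 gene that was higher, by 1.38.

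Rab1b, a GTPase of transport from the endoplasmic reticulum to the Golgi, Actr1a, of the dynactin complex that links cargo to dynein, and Ddb1, an adaptor of the CUL4 ubiquitin ligase, were among the 12 largest falls. Rab1b had 6.71, 7.78 and 10.09 in embryos 9 to 14 and 9.18, 11.48 and 12.09 in embryos 15 to 18, and half-embryos 11b and 16b accounted for the overlap. The differences were -3.36 for Rab1b, -3.33 for Actr1a and -3.14 for Ddb1 (adjusted p = 0.000131, 0.000705 and 0.000136, limma). The list of Rab cargo transport as a whole was divided, with 22 of 74 higher (29.7%) and 14 lower (18.9%) as deposited. After quantile normalization 6 were higher (8.11%) and 19 lower (25.7%). The shares over all transcript clusters were 45.6% and 9.25% as deposited and 10.4% and 12.0% after quantile normalization.

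Over both media together, genes of DNA replication, mitosis and chromatin were more often lower than higher. As deposited, 9.25% of all transcript clusters were lower and 45.6% higher. Of 30 replication genes, 11 were lower and 6 higher as deposited, with 14 lower and 1 higher in GM501 alone (median -0.84) and 1 lower and 5 higher in SAGE 1-step alone (median -0.01). Mcm2, a subunit of the replicative helicase, had 8.49, 9.53 and 10.96 in embryos 9 to 14 and 10.06, 11.92 and 12.76 in embryos 15 to 18, a difference of -2.13 (adjusted p = 0.000842, limma) with overlapping arrays. Of 27 mitotic genes, 10 were lower and 1 higher (14 and 1 in GM501, 4 and 0 in SAGE 1-step). Cdc20, the activator of the anaphase-promoting complex, differed by -1.98 and the kinase Plk1 by -1.37. Of 14 genes of the DNA methylation machinery, 6 were lower and 0 higher (5 and 0 in GM501, 3 and 0 in SAGE 1-step). The maintenance cofactor Uhrf1 differed by -1.69 and the de novo methyltransferase Dnmt3b by -1.58. Of 66 replication-dependent histone genes, 27 were lower and 3 higher, with a median of -0.49 (34 and 0 in GM501, 6 and 2 in SAGE 1-step). Hist2h2bb and Hist1h4h, which encode histones H2B and H4, differed by -2.14 and -0.96, each without overlap. Of 43 splicing factors, 14 were lower and 5 higher (19 and 4 in GM501, 5 and 4 in SAGE 1-step). U2af2, which recognises the polypyrimidine tract, differed by -2.02 and Snrpd1, a core protein of the small nuclear ribonucleoproteins, by 1.54, each without overlap. Of 39 proteasome subunits, 15 were higher (38.5%) and 4 lower (10.3%) as deposited, near the 45.6% and 9.25% of all transcript clusters. After quantile normalization 11 were higher (28.2%, against 10.4% of all) and 4 lower. With each array centred, 1 was higher and 4 lower.

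**Figure D2:**
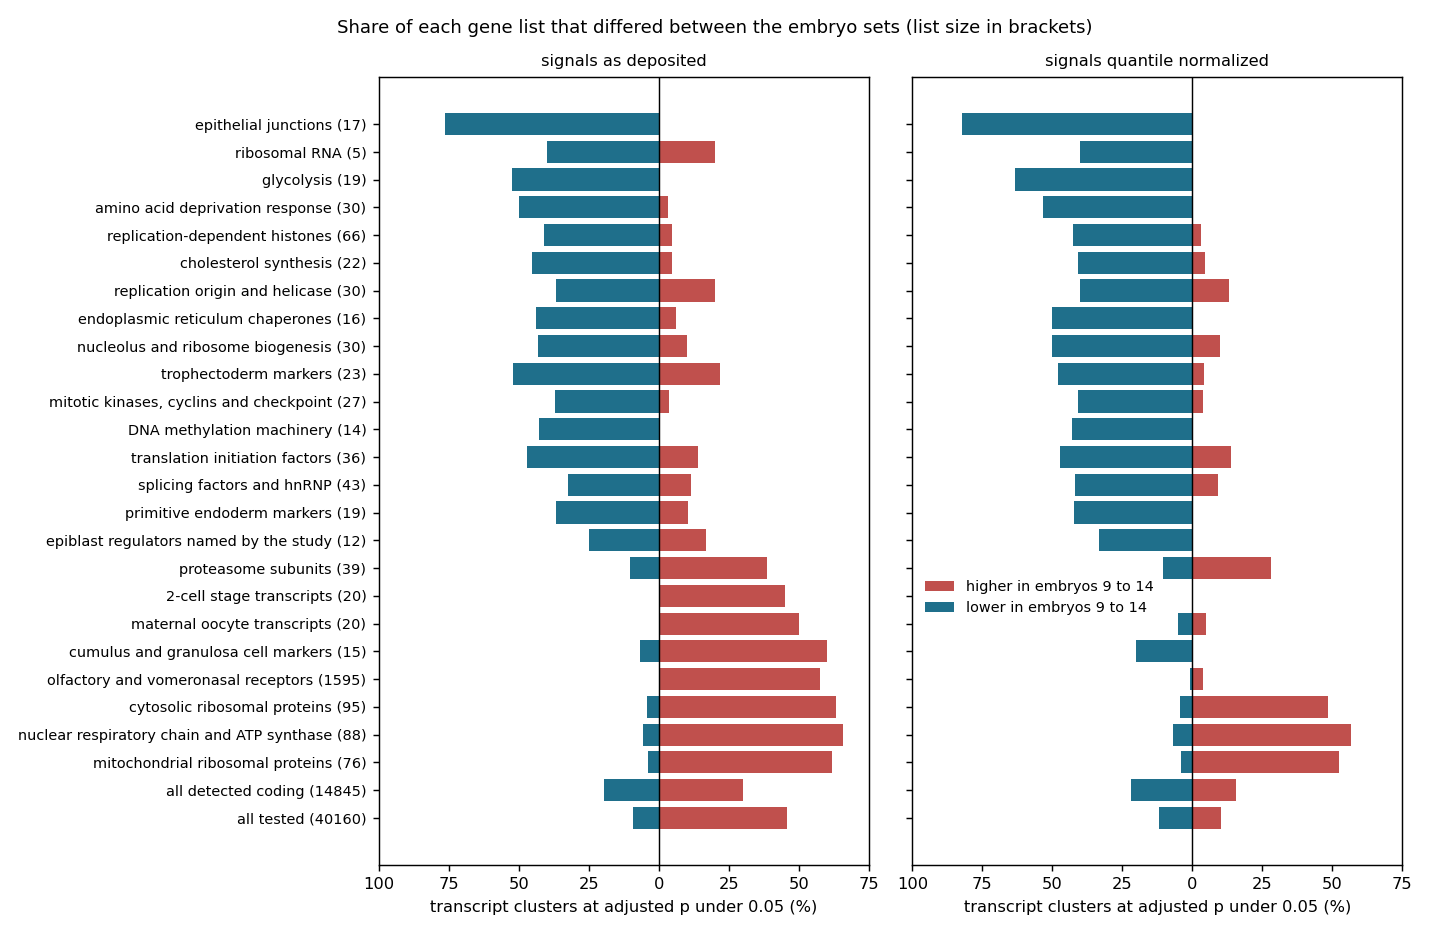
Share of each gene list (list size in brackets, Rn18s and Gapdh left out) that was higher (red, to the right) or lower (blue, to the left) in embryos 9 to 14 at an adjusted p under 0.05, in % of its transcript clusters, with signals as deposited (left) and quantile normalized (right). Ribosomal protein and respiratory chain lists extended to the right in both panels, epithelial junctions and glycolysis to the left, and the receptor, oocyte and 2-cell lists to the right mainly as deposited.

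Immune, chromatin and protease inhibitor genes were among the 12 largest rises. Ly96, the MD-2 partner of Toll-like receptor 4 (chromosome 1, 16688456 to 16709605), had 5.00, 8.78 and 11.82 in embryos 9 to 14 and 4.76, 5.64 and 6.44 in embryos 15 to 18. Its level was uneven among embryos 9 to 14, 2 of whose 12 arrays (9a at 5.24 and 13b at 5.00) lay within the range of the other set, and the difference was 3.05 (standard error 0.60, adjusted p = 0.00297, limma). B2m had 10.41, 11.70 and 12.67 in embryos 9 to 14 and 7.17, 9.56 and 9.96 in embryos 15 to 18. All 12 arrays of the first set were above the 8 of the second (difference 2.74, standard error 0.32, adjusted p = 0.000133, limma). Sap30, a subunit of the Sin3 histone deacetylase complex, had 12.20, 12.52 and 13.57 in embryos 9 to 14 and 8.25, 10.29 and 12.00 in embryos 15 to 18, a difference of 2.46 (adjusted p = 0.0001, limma) without overlap. Oas1f, of the oligoadenylate synthetase family, and Stfa1, of the stefin A inhibitors of cysteine proteases, were higher by 2.45 and 2.39. Rcor3, a corepressor, was higher by 2.85 in an unmapped transcript cluster and Arxes2, an X-linked gene known from adipocytes, by 2.66 (adjusted p = 0.0102, limma) with a wide spread.

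Further genes that were higher without overlap between arrays were Mt1, a zinc-binding metallothionein, at 1.35, Mcl1, which opposes apoptosis, at 1.01, and Txn1, a thioredoxin, at 0.57. Their lists had calls in both directions as deposited. Over all transcript clusters, 45.6% were higher and 9.25% lower as deposited, and 10.4% and 12.0% after quantile normalization. Of 19 apoptosis genes, 4 were higher and 3 lower, and of 20 genes of the response to oxidative stress, 3 were higher and 1 lower. After quantile normalization these counts were 2 and 4, and 2 and 1. Of 13 metallothioneins and zinc transporters, 3 were higher and 4 lower as deposited, and 1 and 4 after quantile normalization. Of 12 heat shock genes, 4 were higher and 4 lower as deposited, of 21 targets of p53, 2 and 5, and of 20 immediate early genes, 4 and 6. After quantile normalization these were 1 and 4, 0 and 6, and 0 and 7. Of 24 imprinted genes, 8 were higher and 2 lower as deposited and 0 and 2 after quantile normalization. Of 19 genes of actin and the cytoskeleton, 3 were higher and 9 lower as deposited, and 1 and 10 after quantile normalization.

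Lists near the background of the array moved with the common shift. The shares over all transcript clusters were 45.6% higher and 9.25% lower as deposited, and 10.4% and 12.0% after quantile normalization. Of 20 maternal oocyte transcripts, of which 6 were above background, 10 were higher as deposited and 1 after quantile normalization, with medians of 0.28 and -0.03. Ooep, of the subcortical complex of the oocyte, was the gene that was higher under both, by 1.01. Of 20 2-cell stage transcripts, of which 3 were above background, 9 were higher as deposited and 0 after quantile normalization. Of 15 cumulus and granulosa cell markers, of which 3 were above background, 9 were higher and 1 lower as deposited and 0 and 3 after quantile normalization. The mean signal of these cumulus markers was 4.88 to 5.22 in the arrays of embryos 9 to 14 and 4.70 to 5.08 in those of embryos 15 to 18. Of the 1595 receptor transcript clusters, 916 were higher as deposited and 62 after quantile normalization.

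The direction of a difference went with the number of probes of a transcript cluster. Among 14837 coding transcript clusters above background, the median difference was 0.50 for those with 1 to 30 probes (55.5% higher, 6.09% lower) and 0.42 for 31 to 60 probes. It was -0.02 for 151 to 200 probes, -0.34 for 251 to 350 probes and -0.47 for more than 350 probes (6.68% higher, 49.9% lower). After quantile normalization the ends of this range were 0.28 and -0.54. The order was the same at matched signal. Between 10 and 12 on the log2 scale, the median difference was 0.66 for up to 60 probes, 0.44 for 61 to 120, -0.09 for 121 to 250 and -0.63 for more than 250 probes. In each array, the median signal of the 2694 transcript clusters with more than 250 probes was set against that of the 4456 with 60 or fewer. The excess of the many-probe median was 0.25 to 0.80 (median 0.56) in embryos 9 to 14 and 0.95 to 1.86 (median 1.58) in embryos 15 to 18, with no overlap, and 1.51 to 1.86 in embryos 15 to 18 without half-embryo 16b. In the 16 arrays of KSOM(aa), which were scanned in another project, the same value ran from 0.87 to 1.54.

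**Figure D3:**
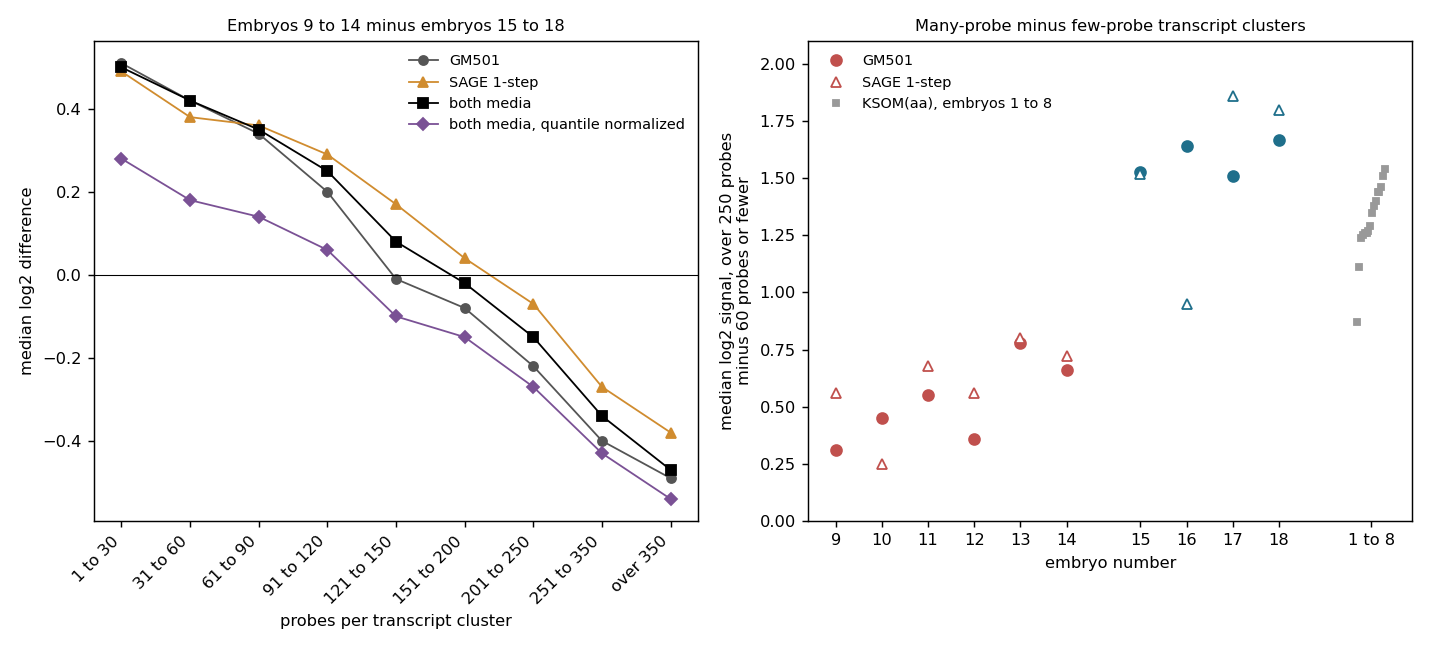
Left, median log2 difference (embryos 9 to 14 minus embryos 15 to 18) of coding transcript clusters above background, by number of probes, in each medium, over both media and after quantile normalization. Right, median log2 signal of transcript clusters with over 250 probes minus that with 60 or fewer in each array, with embryos 9 to 14 in red, embryos 15 to 18 in blue and KSOM(aa) in grey. Differences fell as probes increased in each medium, and the 12 arrays of embryos 9 to 14 (0.25 to 0.80) lay below all others.

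Beside this gradient, the lists were set against coding transcript clusters of the same number of probes by subtracting the median difference of their probe class. The median that remained was -1.36 for epithelial junctions, -0.61 for glycolysis without Gapdh, -0.87 for the response to amino acid deprivation, -0.91 for replication-dependent histones, -0.58 for trophectoderm markers and -0.43 for cholesterol synthesis. It was 0.46 for mitochondrial ribosomal proteins, 0.27 for the nuclear respiratory chain and ATP synthase and 0.22 for cytosolic ribosomal proteins. It was nearer 0 for replication (-0.14) and splicing (-0.11), whose medians without this step were -0.52 and -0.28. Genes of few probes also appeared among the falls, such as Cldn4 and Rs5-8s1 with 30 probes each, and Eef2 had 144. The part of the probe gradient, of the array background and of scan order in the differences of single genes was not tested.

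The separation was present in each medium. In GM501 alone, 20208 transcript clusters (50.3%) passed, 16802 higher (41.8%) and 3406 lower (8.48%), and after quantile normalization 7173 (17.9%), 8.34% higher and 9.52% lower. In SAGE 1-step alone, 5981 (14.9%) passed, 4528 higher (11.3%) and 1453 lower (3.62%), and after quantile normalization 4629 (11.5%), 6.08% higher and 5.45% lower. The number for SAGE 1-step was 18255 (45.5%), 38.0% higher and 7.42% lower, without embryo 16, to which array 16b belongs, and 3505, 3164 and 3329 without embryo 15, 17 or 18. Of the transcript clusters called, 4618 were called in both media, which were 22.9% of the calls in GM501 and 77.2% of those in SAGE 1-step, and 4615 of them had the same direction. Of those called over both media together, 99.8% pointed the same way in each. Since that call was made on the average of the sisters, such agreement was likely beforehand and is no separate support. The number of arrays limits the precision. The median standard error of a difference was 0.147 over both media, 0.177 in GM501 and 0.200 in SAGE 1-step.

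Whether the separation depended on the medium was tested on the difference of sisters. No transcript cluster passed (0 of 40160, limma, smallest adjusted p = 0.313), and 2810 had an unadjusted p under 0.05 as deposited and 2906 after quantile normalization. The median standard error of this difference was 0.235. In simulated data with the same numbers of embryos, 18 of 100 changes of 1 log2 unit and 39 of 100 changes of 2 were recovered. Most changes of these sizes would be missed in such data, where noise was independent between transcript clusters and few of them changed. The smallest p among genes with separated embryo means belonged to Dscc1, a subunit of a clamp loader of DNA replication. Its half-embryos had 9.30, 9.77, 9.98, 10.28, 10.01 and 9.77 in GM501 and 9.32, 10.10, 10.61, 10.82, 10.44 and 10.48 in SAGE 1-step in embryos 9 to 14. In embryos 15 to 18 they had 9.29, 8.71, 9.80 and 9.74 in GM501 and 8.68, 7.62, 7.49 and 8.44 in SAGE 1-step. The sets overlapped in GM501 (difference 0.47) and not in SAGE 1-step (2.24), with an adjusted p of 0.67 for the dependence on medium (limma). Adat2, of a transfer RNA deaminase, differed by 1.12 in GM501 and 2.15 in SAGE 1-step, and the kinase Mast2 by -2.49 and -1.39. Fry and Slc13a2, a scaffold protein and a citrate transporter, differed by -0.34 and -0.12 in GM501 and by -1.40 and -1.10 in SAGE 1-step, and the adjusted p was 0.694 for all 4 (limma). Nanog differed by -2.03 in GM501 (adjusted p = 0.023, limma) and by 0.14 in SAGE 1-step (adjusted p = 0.851, limma), and the dependence on medium had an adjusted p of 0.694.

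**Figure D4:**
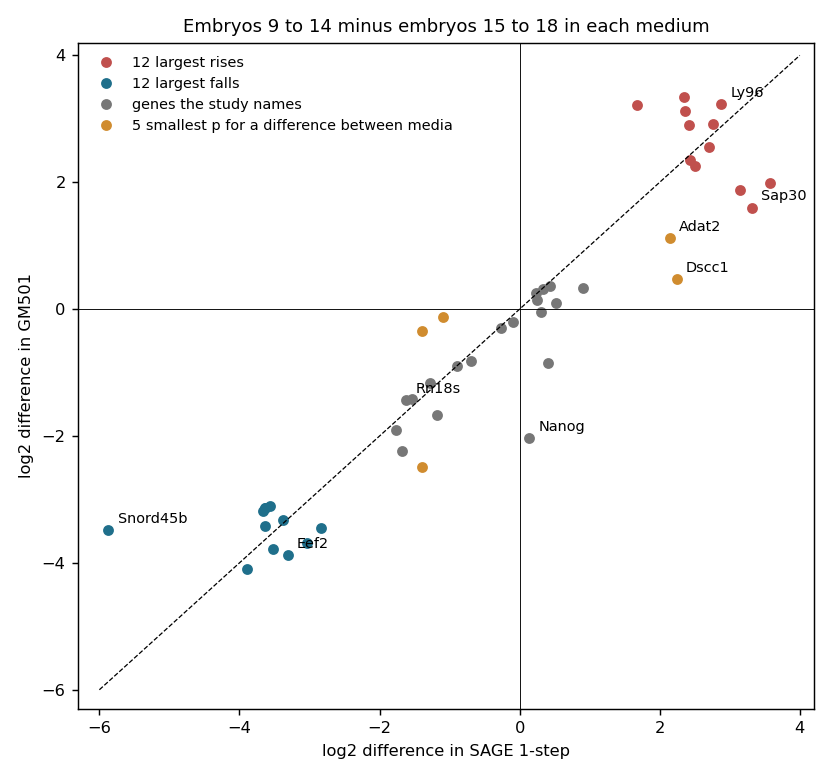
Log2 difference between embryos 9 to 14 and embryos 15 to 18 in GM501 (vertical axis) and in SAGE 1-step (horizontal axis) for genes named by rule, with equal differences on the dashed line. The 12 largest rises and the 12 largest falls lay on the same side of 0 in both media, as their choice required, while Nanog differed by -2.03 in GM501 and by 0.14 in SAGE 1-step.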

How the data were processed

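The authors amplified total RNA of single blastocysts with the WT Pico kit, hybridized it to MTA-1_0 arrays and obtained log2 signals in the Affymetrix Expression Console with the SST-RMA algorithm (background correction, normalization and summary per transcript cluster) on mm10 annotation. Which arrays were normalized together is not given in the sources used here. The deposited values of the arrays used are log2 signals from 2.12 to 19.14. The deposited column of half-embryo 1a was recorded as a score because 1 cell is no log2 signal, and that row was dropped. Values were identical in both deposited tables.

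A gene symbol was given for 40160 of 65956 transcript clusters (36570 with 1, 3590 with several), which were tested. A transcript cluster was above background when its mean over 20 arrays of the signal minus the array's receptor percentile exceeded 0 (21868). Sisters were averaged and 6 embryos compared with 4 in limma 3.58.1 (R 4.3.3, lmFit, eBayes with trend). The dependence on medium was fitted to sister differences. Apart from the dropped row, no value was dropped or imputed. Nothing says that embryos of a set came from separate females, so p-values measure the spread between these embryos.

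Genes named were those the study names, the 12 largest rises and falls above background with 1 symbol, an adjusted p under 0.05, 1 direction in both media and separated embryo means (no predicted genes, receptors, immune segments or microRNAs), up to 4 members per list with the smallest adjusted p, and the 5 smallest p for dependence on medium. Rn28s1 was chosen after its values were seen. The embryo sets, members and lists were chosen with earlier results of these data known. Replicate numbers are embryo numbers, which pair the sisters across media and are not shared by the sets. In simulated data of 40160 transcript clusters, of 100 changes of 1 and of 2 log2 units, 72 and 95 were recovered over both media, 58 and 85 in GM501 and 51 and 85 in SAGE 1-step. The noise was drawn independently for each transcript cluster and no others changed. These rates therefore hold for few changes without a common shift, a setting that differs from these data. Alternatives were other scalings, filters, weights, priors, units, left-out embryos and embryo sex. The series matrix, the t-test of the methods and Python 3.11.15 (numpy 2.4.6, pandas 2.3.3, matplotlib 3.10.9) were also used. The mature microRNA is from RefSeq.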

Additional observations from a re-analysis of the deposited data

Results flagged for a closer look

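Over the named genes and the array background, 226 groups of 4 to 6 embryos or arrays were checked for a value far from the others of its set, and 16 were found, where chance alone gives about 1 in 20. In embryos 15 to 18, embryo 16 was the separate one for Hprt (14.26), Actr1a (12.01), Lamc1 (8.97), Gpi1 (11.29), Slc7a5 (10.72) and Mir5105 (12.90), and it was the lowest of its set in each. Array 16b in SAGE 1-step also had the highest array background of the set. Embryo 15 was separate for Hist2h2bb (12.27, the highest) and embryo 18 for the unmapped transcript cluster of Rn7sk (18.68, the lowest).

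In embryos 9 to 14, embryo 14 was separate for Snord45b (7.74, against 3.44 to 4.65 in the other 5) and for B2m (10.80, against 11.73 to 12.18). Embryo 9 was separate for Sc5d (10.01) and Slc13a2 (6.03), embryo 11 for Esrrb (4.69), embryo 12 for Atp5k (13.52) and embryo 13 for Foxd3 (5.56). Among the GM501 arrays of embryos 15 to 18, half-embryo 18a had a separate background, the lowest at 4.55.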

How the results depend on the processing

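Over both media, the 22036 calls became 9011 after quantile normalization, 8571 after centring on the median, 10727 with transcript clusters above background only (fewer are tested), 35784 after scaling to Actb, Gapdh and Hprt and 14005 by the methods' t-test at their threshold (19102 after Benjamini-Hochberg). Leaving out 1 embryo gave 13535 to 25245. In GM501, 20208 became 7173, 7297, 9422 and 33591 under the same first 4 settings, and 13756 to 21390 with 1 embryo left out. In SAGE 1-step, 5981 became 3282 after centring, 34427 after scaling to the 3 genes, 20849 with robust array weights and 3164 to 18255 with 1 embryo left out, highest without embryo 16. Fitting the 20 arrays with a random replicate block for embryo gave 23416 (consensus correlation of sisters 0.169), and without half-embryo 16b 26908. The dependence on medium had 0 calls after quantile normalization, after centring, above background only, with each embryo left out and with the replicate block, the alternatives run for it.

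Directions turned for genes without a call or with small differences. After quantile normalization these were Sox17 (-0.09), Gbx2 (-0.14) and Klf4 (-0.08), after centring Sox17 (-0.09), Gbx2 (-0.14), Klf4 (-0.21), Hprt (-0.03) and Cops3 (-0.01). After scaling to Actb, Gapdh and Hprt they were Sox2 (0.64), Cdx2 (0.57), Rn7sk (0.14 and 0.11), Eef1a1 (0.46), Tdgf1 (0.11), Slc13a2 (0.25) and Esrrb (0.71). With 1 embryo left out, Sox2 ran from -0.41 to 0.12 (without embryo 18) and Klf4 without half-embryo 16b (-0.02). Relative to all, the median of the oocyte list turned with transcript clusters above background only (0.10), and that of the 2-cell list there (0.26) and without embryo 17 (-0.05 to 0.05 with 1 embryo left out). The cause of these changes was not tested. On the scale of Actb, Gapdh and Hprt the median of all transcript clusters was 1.17.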
